A study of Mus musculus with 11 samples.

Results

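Normal gland regions missing with 2 floxed Arid1a alleles were stretches of the mouse genome that carried the acetylated histone mark H3K27ac in the glands of both normal and Notch-activated stomachs, and had no such peak in either library from glands in which both alleles of Arid1a were also floxed. Peaks of all 8 H3K27ac lists on chromosomes 1 to 19 and X were merged into 45804 regions. A region was taken when it overlapped by at least 1 bp a peak in both wild-type libraries and both Notch-activated libraries and none in the 2-allele libraries. This held for 1134 regions, 2.48% of the merged regions and 10.2% of the 11167 called in both wild-type and both Notch-activated libraries. Of the others, 8726 were called in both 2-allele libraries and are termed kept, and 1307 were called in 1 of them (890 in replicate 1 alone and 417 in replicate 2 alone). The regions were thus chosen by the presence of peaks in these 6 libraries, which is a description here and not a result.

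The groups were stomach glands of wild-type mice, of Atp4bCre; Rosa26NICD mice (NICD), of Atp4bCre; Rosa26NICD; Arid1aflox/+ mice (1-allele) and of Atp4bCre; Rosa26NICD; Arid1aflox/flox mice (2-allele). H3K27ac was profiled by ChIP-seq in 2 libraries of each group. A trimethylated form of the same histone (H3K4me3) was profiled in 1 library each of wild type, NICD and an Arid1a-floxed genotype, whose title gives 1 floxed allele and whose genotype gives 2. Atp4bCre is a Cre recombinase driven by a gene of the acid-secreting parietal cell, so both Notch activation and the floxed deletion start in that lineage, and every Arid1a-floxed group also carried the NICD transgene. No group had floxed Arid1a without NICD. Ages were not given in the sources used here. Fixed pellets were pooled, so the 2 libraries of 1 group may or may not stem from separate animals, and tests measure only the spread between libraries.

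H3K27ac marks active promoters and enhancers, while H3K4me3 marks promoters of genes that can be transcribed. ARID1A is the DNA-binding subunit of the canonical BAF form of the SWI/SNF complex, which moves nucleosomes and opens chromatin, above all at enhancers. Its gene is often mutated in gastric cancer. Notch signalling works through its cleaved intracellular part, which joins the DNA-binding protein RBPJ and Mastermind co-activators at target genes.

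Depth was stated for 6 of the H3K27ac libraries, at 7.96 M to 18.3 M tags after duplicate removal, and their lists ran from 5148 to 41380 peaks. The 2-allele lists held 15353 and 14364 peaks and gave positions only, so their depth and peak heights were unknown. A region without a called peak is therefore not a region shown to lack the mark. Atp4b and Hrh2, a proton pump subunit and the histamine receptor of parietal cells, carried a peak at the start in both wild-type libraries, and 0 of 6 parietal markers did in the NICD and 2-allele libraries. Atp4b was also called in 1-allele replicate 1, and Cblif, another of these markers, in wild-type replicate 1 alone. Of 4 chief cell markers, Bhlha15 and Clps were called in both NICD libraries, Pgc and Clps in 1 wild-type library each, and none in the 1-allele and 2-allele libraries. Of 4 surface pit markers, Tff1 and Gkn2 were called in both wild-type libraries, NICD replicate 1 and 2-allele replicate 1, Gkn2 in NICD replicate 2, Tff1 in 1-allele replicate 1 and none in the other 1-allele and 2-allele libraries. Gkn1 was called in wild-type replicate 2 and NICD replicate 1 alone. The 2 mucous neck markers, Muc6 and Tff2, were called in NICD replicate 1 alone. Of 2 intestinal markers, Vil1 was called in wild-type replicate 1, both NICD and both 2-allele libraries. For other cell types, 0 of 4 endocrine and 0 of 2 squamous markers were called in any H3K27ac library. Of blood and stromal markers, Ptprc was called in both NICD libraries and 2-allele replicate 1 and Col1a1 in NICD replicate 1. The part of cell mixture in the missing regions was not tested.

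For 5 of the 294 missing regions within 1 kb of a protein-coding gene's start, with high fold enrichment in wild type and NICD, the promoter sequence is shown. Each line gives a promoter of RefSeq (GRCm38.p6), 250 bases before to 50 after the start, in lower case. Capitals mark a CCAATCA match (NF-Y, either strand) in Smpd1, Kctd7 and Pdk4, where Pdk4 also has AGATAA, the GATA factor motif, and GTGGGAA (RBPJ), a CCGGAAG match (ETS core) in Diablo and a GGGGCGGG match (KLF/SP) in Tmem8b. Tcf7l1, from the fixed list of Wnt pathway genes, is shown for its GTGGGAA match. The windows of Tmem8b, Diablo and Kctd7 overlap the missing region only in part, and their marked matches lie outside it.
Tmem8b (chr4:43669057-43669356, plus strand): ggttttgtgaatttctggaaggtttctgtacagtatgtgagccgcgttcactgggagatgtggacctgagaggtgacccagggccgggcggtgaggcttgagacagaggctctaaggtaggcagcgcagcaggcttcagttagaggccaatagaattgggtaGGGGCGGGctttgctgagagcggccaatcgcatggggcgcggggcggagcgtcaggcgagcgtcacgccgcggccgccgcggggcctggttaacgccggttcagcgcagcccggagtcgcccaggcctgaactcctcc
Diablo (chr5:123524115-123524414, minus strand): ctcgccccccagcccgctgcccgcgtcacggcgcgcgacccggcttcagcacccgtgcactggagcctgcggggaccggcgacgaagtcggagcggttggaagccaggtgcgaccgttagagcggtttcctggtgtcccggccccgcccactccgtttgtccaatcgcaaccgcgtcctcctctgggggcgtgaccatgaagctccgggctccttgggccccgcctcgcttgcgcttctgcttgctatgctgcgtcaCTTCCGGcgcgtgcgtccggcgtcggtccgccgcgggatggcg
Smpd1 (chr7:105554110-105554409, plus strand): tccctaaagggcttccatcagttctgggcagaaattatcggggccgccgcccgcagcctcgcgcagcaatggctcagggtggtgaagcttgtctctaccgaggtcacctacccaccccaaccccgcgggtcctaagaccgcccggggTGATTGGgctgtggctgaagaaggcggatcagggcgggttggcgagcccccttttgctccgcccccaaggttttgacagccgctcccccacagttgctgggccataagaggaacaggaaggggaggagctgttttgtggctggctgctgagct
Kctd7 (chr5:130144633-130144932, plus strand): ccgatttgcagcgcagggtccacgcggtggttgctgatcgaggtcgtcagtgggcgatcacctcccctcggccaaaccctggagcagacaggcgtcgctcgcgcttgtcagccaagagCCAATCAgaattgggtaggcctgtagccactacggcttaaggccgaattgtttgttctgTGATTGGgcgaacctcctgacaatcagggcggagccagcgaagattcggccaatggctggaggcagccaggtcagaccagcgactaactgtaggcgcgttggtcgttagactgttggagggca
Pdk4 (chr6:5496229-5496528, minus strand): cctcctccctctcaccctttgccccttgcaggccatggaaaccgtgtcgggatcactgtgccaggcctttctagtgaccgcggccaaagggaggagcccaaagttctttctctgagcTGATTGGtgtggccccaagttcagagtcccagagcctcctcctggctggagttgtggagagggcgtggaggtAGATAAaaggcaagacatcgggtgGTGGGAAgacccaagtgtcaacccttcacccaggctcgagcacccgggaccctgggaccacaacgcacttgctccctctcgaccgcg
Tcf7l1 (chr6:72788996-72789295, minus strand): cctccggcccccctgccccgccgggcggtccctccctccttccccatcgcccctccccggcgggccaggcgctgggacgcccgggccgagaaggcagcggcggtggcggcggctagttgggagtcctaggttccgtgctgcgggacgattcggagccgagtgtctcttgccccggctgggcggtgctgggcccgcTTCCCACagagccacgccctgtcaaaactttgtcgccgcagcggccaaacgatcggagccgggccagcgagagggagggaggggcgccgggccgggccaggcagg
The regions at these promoters were called in each wild-type and NICD library with no 2-allele peak over them, and their strength differed. Fold enrichment here is the authors' value for the strongest peak of a region over the background of its own library, and it ranks peaks inside 1 list only. Tmem8b (4:43669231-43669768), whose start is shared with that of Fam221b, had 8.29 and 7.73 in wild type, 13.4 and 10.0 in NICD, and 5.33 in 1-allele replicate 2 alone. Its nearest 2-allele peak lay 12762 bp away. Diablo (5:123523662-123524148), a mitochondrial protein that counters inhibitors of apoptosis, had 6.72 and 7.44 in wild type and 9.47 and 7.29 in NICD, no peak in either 1-allele library, and a 2-allele peak 48347 bp away. Smpd1 (7:105554074-105554841), the lysosomal acid sphingomyelinase, had 7.92 and 5.65 in wild type and 10.8 and 7.85 in NICD, again with no 1-allele peak.

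Pdk4 (6:5495912-5496666), a kinase that switches off pyruvate dehydrogenase, had 6.71 and 6.01 in wild type, 8.94 and 7.08 in NICD and 5.12 in 1-allele replicate 1. No 2-allele peak lay within 197301 bp of it. Kctd7 (5:130144876-130145410), a BTB-domain protein, had 8.87 and 5.59 in wild type, 7.36 and 6.50 in NICD and no 1-allele peak, and it had H3K4me3 in all 3 libraries (8.06, 12.4 and 7.64 fold in wild type, NICD and Arid1a-floxed). Tcf7l1 (6:72788550-72789443), a TCF-family factor that represses Wnt target genes, had 5.81 and 5.83 in wild type and 5.90 and 5.09 in NICD, no 1-allele peak, and its nearest 2-allele peak 109291 bp away. The other high-ranking promoters were those of Slc25a21, a mitochondrial carrier, Sun2, an inner nuclear membrane protein, Sox30, a SOX-family factor, Gm10033 and Alg6, an enzyme of N-glycan synthesis. Their folds ran from 4.97 to 7.62 in wild type and from 6.99 to 10.8 in NICD. Alg6 lay 8 bp from a 2-allele peak, the smallest gap of all 1134 regions.

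The missing regions were mostly distal. Of the 1134, 840 (74.1%) had no protein-coding start within 1 kb, against 1416 of 8726 kept regions (16.2%), and the regions called in 1 of the 2-allele libraries lay between (49.7%). Read the other way, 28.9% of the 2906 distal regions of wild type and NICD were missing and 3.56% of the 8261 near a start. Of the distal ones, 405 (48.2%) lay inside a gene body, close to the 44.1% of kept distal regions, and 49 (5.83%) lay within 1 kb of a non-coding RNA start of the promoter table, against 15.0% of kept distal regions. The median gap to a protein-coding start was 16190 bp. By chromosome, the missing share ranged from 5.61% on X to 12.1% on chromosome 4.

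Strength in wild type and NICD ran with this. Strength was the mean percentile of a region's fold over the 4 lists, and its median was 45.1 in missing against 77.1 in kept regions. Over 5 equal classes from weakest to strongest, the missing share near starts was 13.1%, 6.67%, 2.22%, 0.517% and 0.0515%. For distal regions it was 42.8%, 29.3%, 14.3%, 10.4% and 14.4%. Distal regions were thus missing more often than those near starts in each of the 5 classes, and the distal share did not go on falling at the top. Leaving out regions called in all 9 scored lists of both marks gave 4.60% and 4.80% in the top 2 distal classes.

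**Figure D1:**
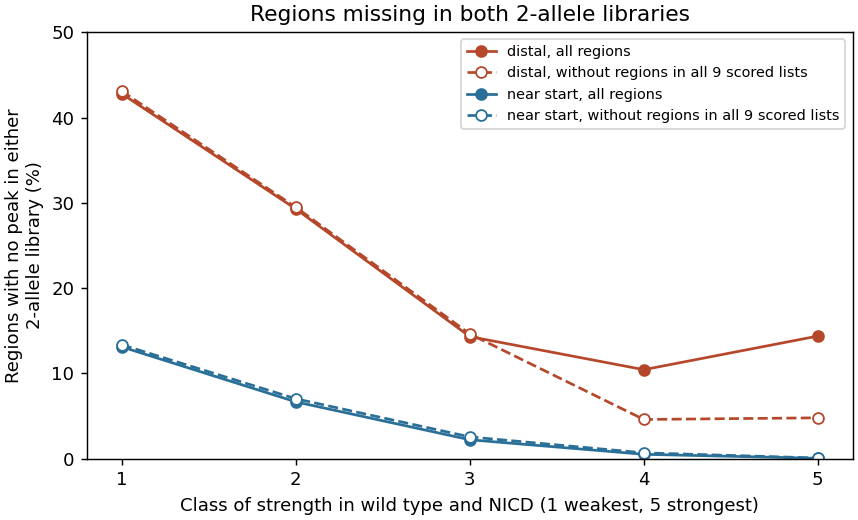
Share of regions called in both wild-type and both NICD libraries that had no peak in either 2-allele library (y axis, percent), by class of strength (x axis, 1 weakest to 5 strongest), for distal regions and regions within 1 kb of a gene start. Filled points are all regions and open points leave out those called in all 9 scored lists; the distal share falls from 42.8% to 10.4% in class 4 and is 14.4% in class 5, or 4.80% without those regions.

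A small set of missing regions stood out among the strongest distal ones. In 74 of the 1134 regions, 72 of them distal, a peak was called in all 9 scored lists, that is the 6 H3K27ac lists of wild type, NICD and 1-allele glands and the 3 H3K4me3 lists. They lay far from gene starts, with a median gap of 104900 bp to a protein-coding one, although 20 of the 72 distal ones (27.8%) were inside a gene body, and their median strength was 87.1 against 43.7 in the other 1060. Median fold was between 7.97 and 13.3 in each of the 9 lists, in libraries labelled for both marks. The 10 strongest distal missing regions were all of this kind.

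A region inside Chl1, a neural adhesion molecule (6:103648930-103649448), had 33.9 and 31.9 fold in wild type, 29.0 and 29.4 in NICD, 28.1 and 25.4 in 1-allele, and 32.2, 31.4 and 31.2 in the H3K4me3 libraries of wild type, NICD and Arid1a-floxed. All 9 values were high, and the nearest 2-allele peak was 2270968 bp away. The region nearest to Fam172a (13:77438748-77439189), had 34.5 and 29.1 in wild type, 27.9 and 28.5 in NICD, 29.6 and 25.6 in 1-allele, and 33.3, 31.8 and 30.9 for H3K4me3. That nearest to Rab10 (12:3109715-3110267), had 34.0 and 30.1 in wild type, 27.6 and 26.97 in NICD, 27.6 and 23.9 in 1-allele, and 32.5, 28.9 and 31.1 for H3K4me3. Regions nearest to Dpy19l1, Cr2, Cdk5rap2, Gm7102, Rpusd4 and Fam171a1 were likewise called in all 9 lists. Such regions were not all missing: of 277 distal regions called in all 9 lists, 72 (26.0%) were missing, 24 were in 1 of the 2-allele libraries and 181 were kept. Of distal regions not in all 9 lists, 29.2% (768 of 2629) were missing, but the 2 groups differed in strength. In the strongest class 35 of 146 distal regions called in all 9 lists (24.0%) were missing against 4.80% of the others, and in class 4 it was 20 of 58 (34.5%) against 4.60%. In the 3 weaker classes the share was lower in all 9 lists, at 34.2%, 16.7% and 8.70% against 43.1%, 29.5% and 14.6%, over 38, 12 and 23 regions. The filters behind the 2-allele lists are unknown, and their part in these 74 was not tested.

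**Figure D2:**
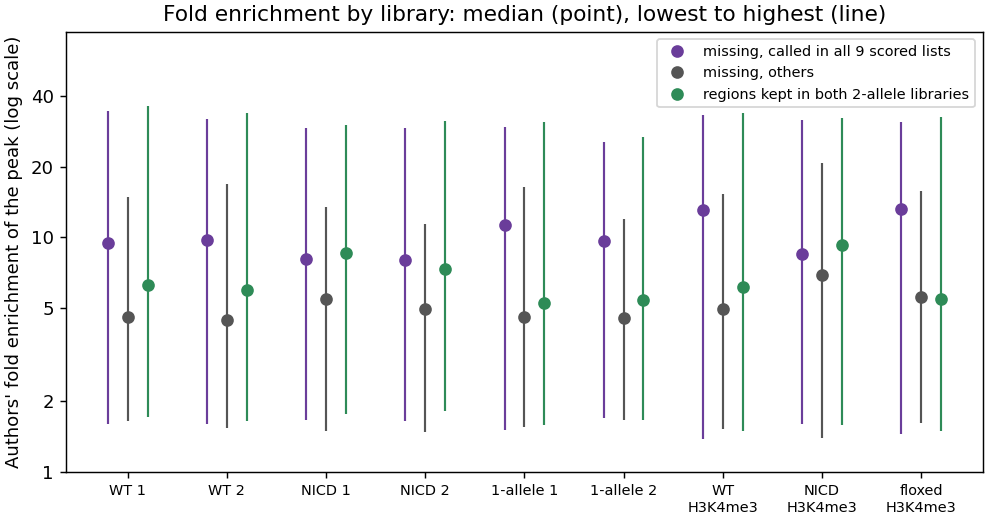
The authors' fold enrichment of the strongest peak (y axis, log scale) in each scored library (x axis), over the regions of a set that have a peak there, with the median as a point and the lowest to highest value as a line. The 74 missing regions called in all 9 lists have medians from 7.97 to 13.3. The medians of the other missing regions lie below those of kept ones in both wild-type and both NICD lists, with overlapping ranges.

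The other 1060 regions were weaker, with median folds of 4.59 and 4.46 in wild type and 5.45 and 4.95 in NICD. The 10 strongest distal ones were looked up after the group of 74 had been seen. Of these, 5 had a peak in both 1-allele libraries, 2 in replicate 1 alone and 3 in neither, whereas over all 1060 regions 21 (1.98%) had one in both. A region inside Grik3, a glutamate receptor gene (4:125702583-125703517), had 9.79 and 8.28 fold in wild type, 11.7 and 7.95 in NICD and 5.54 and 3.89 in 1-allele, with H3K4me3 called in NICD alone (13.3). The regions nearest to Sox3 and Brox and those inside Tex14 and Tmem107 also had both 1-allele peaks, and Tmem107 had no H3K4me3 peak in any library. Those nearest to Sox3 and Brox missed the group of 74 only for want of an H3K4me3 peak in NICD. Brox had 14.9 and 16.9 fold in wild type, 16.4 and 11.9 in 1-allele, and 14.3 and 15.6 for H3K4me3 in wild type and Arid1a-floxed. The region nearest to Ndufb3 missed the group only for want of a peak in 1-allele replicate 2. A region inside Phc1, a Polycomb gene (6:122325527-122325998), had 9.77 and 7.08 in wild type, 9.98 and 8.75 in NICD and 5.34 in 1-allele replicate 1, the library in which the region nearest to Ndufb3 was also called. The region nearest to Bod1 (11:31757111-31757682) had 7.82 and 6.10 in wild type and 8.95 and 8.27 in NICD, with no 1-allele and no H3K4me3 peak. Those nearest to Rpl32 and Gm36448 likewise had no 1-allele peak, and both had H3K4me3 in NICD (10.2 and 19.4).

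The 1-allele libraries were not read by the rule, and they asked whether the missing regions also lacked a peak with 1 floxed allele. A peak was called in 14.4% of missing regions in replicate 1 and 16.5% in replicate 2 (mean 15.4% ± 1.50, SD, n = 2). In kept regions it was called in 44.9% and 65.9% (mean 55.4% ± 14.9, SD, n = 2). Both 1-allele libraries were lower over missing regions, with differences of -30.5 and -49.4 percentage points and a mean of -39.95 ± 13.4 points (SD, n = 2, exact two-sided sign-flip p = 0.5, the smallest that 2 libraries allow). Without the regions called in all 9 lists, a step that takes out regions with a 1-allele peak by definition, the shares were 9.53% ± 1.60 and 44.1% ± 18.7 (SD, n = 2).

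Part of this ran with strength. When kept regions were weighted to the strength classes of the missing ones, 28.5% and 41.5% of them were called in the 2 libraries, and the difference was -14.1 and -25.0 points. Over distal regions it was -15.5 and -22.6 points, and near starts -18.1 and -26.0. The weighted difference rests on the weaker classes, which hold most missing regions, and the strong ones went the other way in part. In the strongest class, 95.4% of 43 missing regions were called in each 1-allele library, against 70.8% and 90.9% of kept regions. In class 4 it was 61.0% of 41 in each, against 49.8% and 77.1%. Of these missing regions, 35 of the 43 and 20 of the 41 were called in all 9 lists, and so have both 1-allele peaks by definition. In the 3 weaker classes the missing share was lower in both libraries. In all, 879 missing regions (77.5%) were in neither 1-allele library, against 26.8% of kept regions and a background of 36.8% of the 11167. Of the rest, 68 were in replicate 1 alone, 92 in replicate 2 alone and 95 in both, and 74 of those 95 were the regions called in all 9 lists. Both 1-allele lists were short (5148 and 7594 peaks), and list length sets how many of any regions can be called. Missing regions were also narrower than kept ones, with a median of 562 bp against 862 bp. The weighting by strength did not match width, and wider regions can overlap more peaks.

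H3K4me3 gave a readout of the other mark, with 1 library per genotype and so no test. It was called in 32.8% of missing regions in wild type (95% exact Clopper-Pearson interval 30.1% to 35.6%, for counting error only), 66.6% in NICD and 10.4% in Arid1a-floxed glands. Kept regions had 90.0%, 98.3% and 41.7%. Near starts, missing regions had H3K4me3 in 66.3%, 93.2% and 10.9%, against 95.1%, 99.6% and 45.9% of kept ones. Kept regions near starts weighted to the strength classes of the missing ones had 87.7%, 98.6% and 35.1%, which narrowed the gaps. The share was lower for missing than for kept promoters in each of the 3 libraries, weighted or not. For 2578 genes the start was placed at the end with H3K4me3 in these same libraries, so position was partly set by this mark. The Arid1a-floxed list was the shortest, at 5157 peaks against 17522 in wild type and 39360 in NICD.

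Over distal regions, 21.1%, 57.3% and 10.2% of missing ones carried H3K4me3 in wild type, NICD and Arid1a-floxed, against 48.6%, 85.7% and 12.9% of kept distal regions weighted to the same strength classes. The Arid1a-floxed shares lay close together, with an interval of 8.27% to 12.5% for the missing regions. Of the 86 missing distal regions with this Arid1a-floxed peak, 72 were called in all 9 lists, where the peak is present by definition. Without regions called in all 9 lists, the shares were 1.82% of missing and 5.67% of weighted kept distal regions. By class over all positions, the wild-type and NICD shares were lower for missing regions in each of the 5 classes. The Arid1a-floxed share was lower in the 3 weaker classes and higher in the top 2, at 63.4% against 48.5% and 86.1% against 53.4%. Those top 2 classes held 41 and 43 missing regions. Of these, 20 and 35 were called in all 9 lists and so have this peak by definition. By comparison, 4259 regions were called in both NICD libraries, in no wild-type library and in neither 2-allele library, and 82.9% of them were distal. Only 0.634% and 1.06% of those had a 1-allele peak. That set was picked for having no wild-type peak, so the difference from the missing regions of normal glands was not tested.

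**Figure D3:**
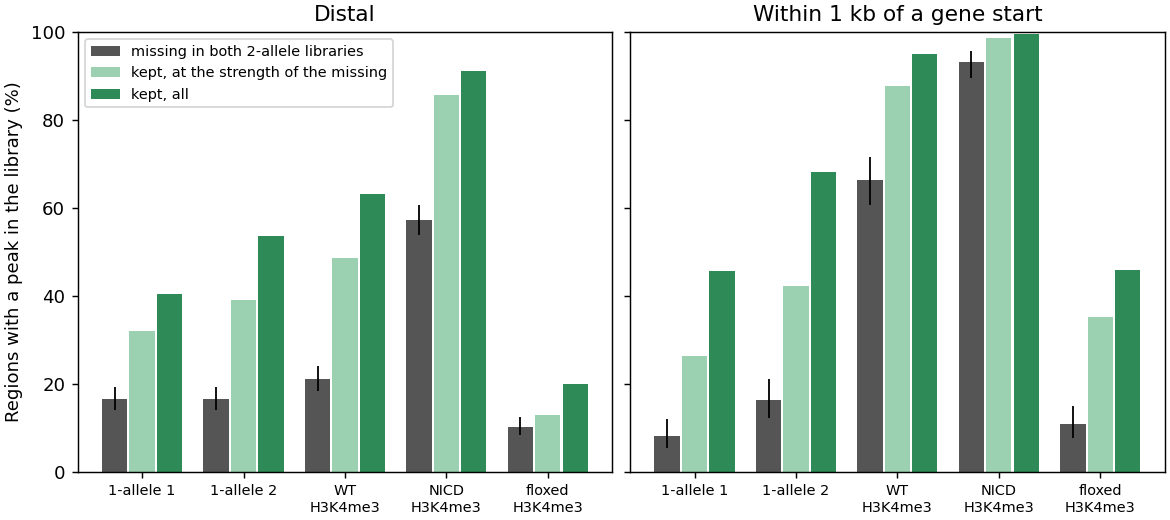
Share of regions with a peak (y axis, percent) in each library that the rule did not use to choose them (x axis), for distal regions (left) and regions within 1 kb of a gene start (right). Bars are missing regions with 95% exact binomial intervals, kept regions weighted to the same strength classes, and all kept regions; the missing bar is the lowest in each library, from 21.1% against 48.6% and 63.2% for distal H3K4me3 in wild type to 10.2% against 12.9% and 19.9% in Arid1a-floxed.

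Many missing regions were far from any 2-allele peak, and some lay beside one. The gap to the nearest 2-allele peak had a median of 18140 bp and ran from 8 bp to 2419646 bp. It was beyond 10 kb in 734 regions (64.7%) and beyond 100 kb in 174 (15.3%). It was within 1 kb in 188 regions (16.6%) and within 100 bp in 18. Near starts the neighbouring peaks were more common, at 99 of 294 regions (33.7%), against 89 of 840 distal ones (10.6%). Of the 307 genes whose start lay within 1 kb of a missing region (3.64% of the 8441 genes with a wild-type and NICD region there), 116 still had a 2-allele peak within 1 kb of a start, and 191 (62.2%) had none.

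**Figure D4:**
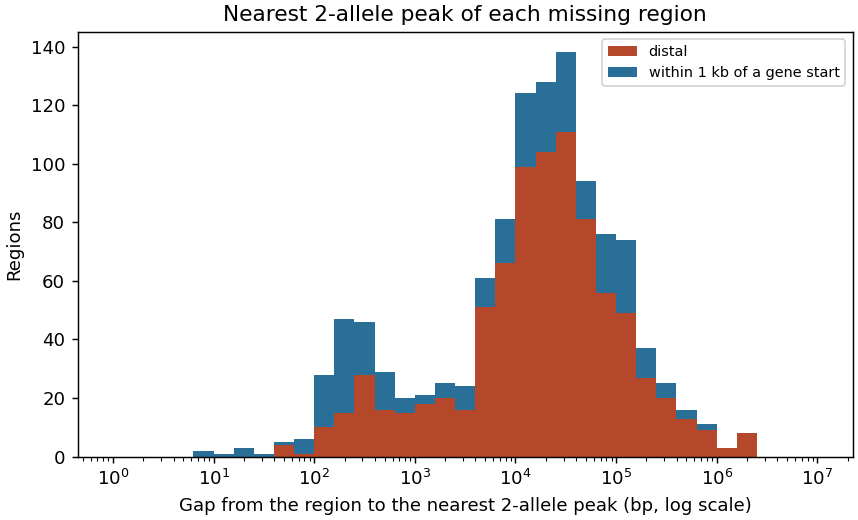
Number of missing regions (y axis) by the gap to the nearest peak of either 2-allele library (x axis, bp, log scale), with distal regions and regions within 1 kb of a gene start stacked. Of the 1134 regions, 734 lie beyond 10 kb and 188 within 1 kb, where regions near starts outnumber distal ones 99 to 89; the rest lie between.

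By gene, 1008 of 10832 protein-coding genes with a wild-type and NICD region from 10 kb before to 10 kb after the gene (9.31%) had a missing region there. Of them, 941 had 1, 65 had 2 and 2 had more, and in 392 (38.9%) every such region was missing. Vmp1, an endoplasmic reticulum protein of autophagy, had 3 of 3 missing, and Efna5, a ligand of Eph receptors, 3 of 5. Of those at Efna5, 2 lay close to a 2-allele peak, at 892 and 704 bp. Adamtsl4, Adck5, Adtrp, Arhgap23, Asb4, Cbr3, Cdk14 and Dcbld2 each had 2 of 2 missing. Among the 65 genes with 2, these were named by the missing share of their regions and then by symbol. The 2 of 2 was thus part of the choice. The regions of Adck5 lay 1505 and 753 bp from a 2-allele peak, and 1 of Adamtsl4 910 bp. The 2 regions of Asb4 (6:5442442-5442852 and 6:5442902-5443860) and of Adtrp (13:41827901-41828535 and 13:41828715-41829243) lay side by side. At Dcbld2, a transmembrane receptor gene, the promoter (16:58408432-58409203) had 6.15 and 5.99 fold in wild type and 9.12 and 6.77 in NICD, and a region 17789 bp into the gene had 4.00 and 4.08, and 5.14 and 4.96. Neither had a 1-allele peak, and the nearest 2-allele peak was 96141 bp away. At Cdk14, a cyclin-dependent kinase gene, the promoter (5:5379661-5381111) and a region 19448 bp into the gene had 5.42 and 5.52, and 4.93 and 5.80, in wild type, and 8.47 and 7.37, and 7.22 and 6.25, in NICD, again with no 1-allele peak.

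The 3 missing regions of Vmp1 lay around a microRNA gene, which was noticed after their positions were seen. Mir21a (11:86584067-86584158, minus strand) encodes miR-21, a microRNA that is abundant in many tumours, and lies inside 1 end of the annotated Vmp1 gene. Its main mature form is shown with the seed, bases 2 to 8, in capitals.
mmu-miR-21a-5p: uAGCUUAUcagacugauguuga
A region at 11:86586252-86586881, 2093 bp before the hairpin, had 4.53 and 3.72 fold in wild type and 3.60 and 3.52 in NICD, with 4.47 in 1-allele replicate 2 alone. A region at 11:86585274-86586019, 1115 bp before it, had 3.08 and 3.78, and 2.82 and 2.59. The region 4449 bp after it had 2.98 and 3.35, and 2.47 and 2.54. Their mean percentiles over the 4 lists were 17.3, 4.91 and 1.77, and the nearest 2-allele peak was 28755 bp or more away. The hairpin of Mir375, a microRNA of endocrine and other epithelial cells, lay inside a missing region (1:74900402-74900846) with 6.24 and 5.52 fold in wild type and 9.46 and 4.89 in NICD, no 1-allele peak and H3K4me3 in wild type (4.07) and NICD (11.3). Of 277 microRNA hairpins with a wild-type and NICD region within 10 kb, 22 (7.94%) had a missing one, a share near the 9.31% of genes.

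Of 265 genes in 21 fixed lists with a wild-type and NICD region within 10 kb, 29 had a missing one (10.9%, against 9.31% of all genes). The parietal cell list had 4 of 12 such genes, the gastric and endodermal transcription factors 5 of 17, surface pit genes 2 of 9, and the chief, mucous neck and intestinal lists 1 of 5, 1 of 6 and 1 of 4. Receptor tyrosine kinase genes had 3 of 19, SWI/SNF genes 3 of 24, Notch genes 2 of 20, immediate early genes 2 of 18, junction genes 2 of 21, tumour genes 2 of 17, Wnt genes 1 of 11 and mitochondrial energy genes 1 of 26. No missing region was found for 23 housekeeping, 20 p53, 8 proliferation, 6 squamous, 5 blood, 3 endocrine genes and 1 stromal gene with a region. These lists are short and were not tested against all genes.

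**Figure D5:**
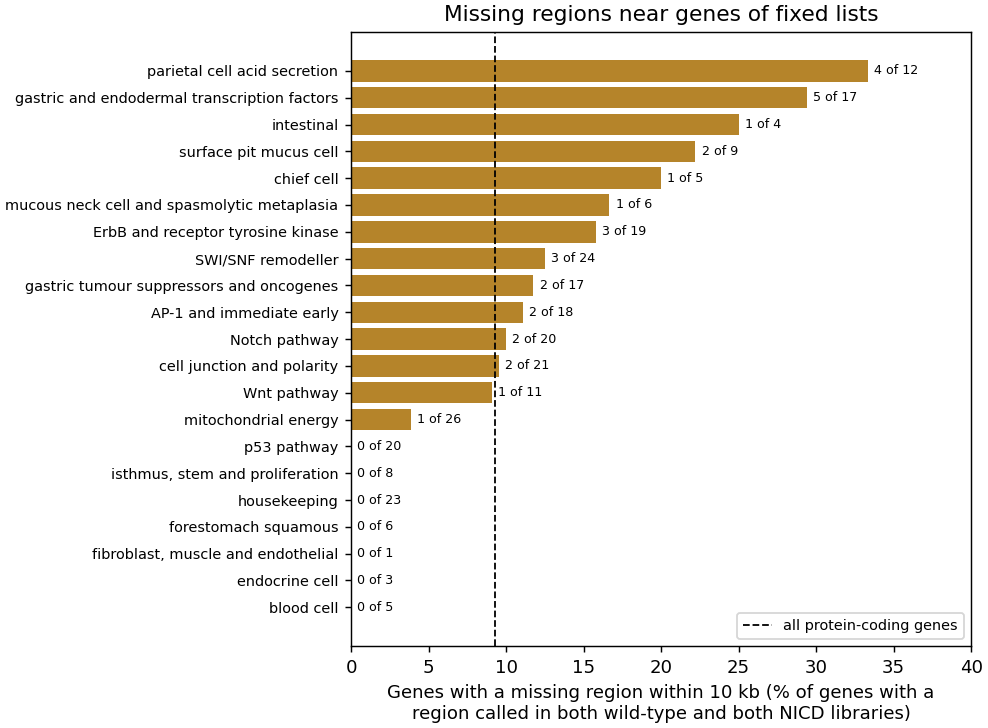
Share of genes with a missing region within 10 kb (x axis, percent of the genes of a list that have a region called in both wild-type and both NICD libraries) for 21 gene lists (y axis), with counts beside the bars and the 9.31% of all protein-coding genes as a dashed line. The parietal cell list (4 of 12) and the gastric transcription factors (5 of 17) are at the top, and 7 lists have 0.

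Of the parietal cell genes, Kcnj15, a potassium channel of the parietal cell, had its missing region (16:95258116-95258555) 558 bp from a start. It had 4.13 and 3.27 fold in wild type and 4.80 and 4.30 in NICD, and no 2-allele peak lay within 416106 bp. Kcnq1, the potassium channel that supports acid secretion, had one inside the gene (7:143313549-143314056) with 4.68 and 4.67 in wild type and 5.35 and 5.56 in NICD, 111733 bp from a 2-allele peak. Cckbr, the gastrin receptor, had one 16009 bp from its start with 4.73 and 4.25, and 5.05 and 3.70. The region counted for Ezr, a linker of membrane and actin, lay inside the neighbouring Sytl3 (3.39 and 3.36, and 4.11 and 3.90). None of these 4 regions had a 1-allele peak.

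The missing regions of 4 of the gastric and endodermal transcription factors are described here. Foxa2, a forkhead factor of the foregut, had one 5270 bp from its start (3.20 and 2.90, and 3.39 and 3.80), 4627 bp from a 2-allele peak. Those of Grhl1 and Grhl2, epithelial grainyhead factors, lay inside the genes, 19580 and 75530 bp from a 2-allele peak, with 3.75 and 3.42, and 4.85 and 3.46, in wild type. That of Meis1, a homeobox factor, had 3.34 and 4.07 in wild type and 3.59 and 3.55 in NICD.

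Of other gland cell genes, Psca, a cell surface protein of pit cells, had its missing region 53 bp from the start (15:74714892-74715387; 3.29 and 3.01 fold in wild type, 2.73 and 3.56 in NICD). Gpx2, a glutathione peroxidase of the gut lining, had one 71 bp from the start (12:76794885-76795483; 5.02 and 4.06, and 4.68 and 4.58), 28744 bp from a 2-allele peak. Tnfrsf19, also called Troy, which marks some chief cells, had one inside the gene (3.39 and 3.68, and 6.26 and 4.76), 208213 bp from a 2-allele peak. The missing region of Fut2, a fucosyltransferase that decorates mucins, lay 475 bp from a 2-allele peak, and that of Fabp2, an intestinal fatty acid binding protein, 34969 bp from one.

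Among signalling genes, several missing regions sat beside a 2-allele peak. The gap was 226 bp for Errfi1, an inhibitor of the EGF receptor, 337 bp for Mst1r, the RON receptor, 316 bp for Myc and 604 bp for Junb, both growth-response transcription factors. Junb, for example, had 2.50 and 3.12 fold in wild type and 2.86 and 2.44 in NICD, which were low values in each list. The missing region of Fgfr3, a fibroblast growth factor receptor, lay 19 bp from a start (5:33721743-33722132; 5.00 and 3.91, and 5.01 and 5.40) and 15552 bp from a 2-allele peak. Of the Notch pathway, Maml3, a Mastermind co-activator, had 2 missing regions inside the gene, the stronger with 7.17 and 5.30 fold in wild type and 7.47 and 5.50 in NICD. Notch3, a Notch receptor, had one 44114 bp from its start with 6.23 and 6.56, and 4.83 and 4.29, 7174 bp from a 2-allele peak.

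Of the SWI/SNF genes, 3 had a missing region. Arid1b, the closest relative of Arid1a and its alternative in the BAF complex, had one 202824 bp into the gene (17:5197898-5198471) with 4.09 and 5.03 fold in wild type, 7.16 and 7.23 in NICD and 3.83 in 1-allele replicate 1, and a 2-allele peak 7590 bp away. Smarcd3, a BAF subunit, had one over a start (5:24601928-24603041; 3.86 and 3.96, and 5.27 and 4.71), 1694 bp from a 2-allele peak. Bicra, a subunit of non-canonical BAF, had one 379 bp from a 2-allele peak. Jup, plakoglobin, and Llgl2, a polarity protein, had regions 4380 and 19318 bp from one, and Bcor, a Polycomb-linked co-repressor, 60115 bp. Ckmt1, a mitochondrial creatine kinase, had one over its start, 2022 bp from a 2-allele peak.

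Sequence was compared over promoter windows that overlapped missing regions and no kept or single-library region, which gave 154 windows of 142 genes, against 6535 windows of 5689 genes at kept regions and 21044 windows of all protein-coding promoters in the table. GC content was close at missing and kept regions, with medians of 62.5% and 63.3%, and both were above the 56.7% of all promoters. CpG pairs were fewer at missing than at kept regions, with medians of 19 and 24 per window, and more than the 13 of all promoters. The ratio of observed to expected CpG was 0.6 or more in 61.0% of windows at missing regions, 84.9% at kept regions and 48.1% of all, and in 60.2% against 80.7% within the 2 weakest strength classes. Of the windows printed above, that of Pdk4 had a ratio of 0.436 and that of Diablo 1.10.

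Short matches on both strands were counted in the same windows, and a match is a description and not a site. A match can lie in a part of the window outside the region. CCGGAAG (ETS core) was in 11.7% of windows at missing regions, 23.5% at kept regions and 11.7% of all promoters, and in 7.08% against 19.2% within the 2 weakest classes. GCGCATGC (NRF1) was in 0 of 154 windows, which allows a share of up to 1.95%, against 6.46% at kept regions and 3.54% of all. CCAATCA (NF-Y) was in 14.9%, 9.50% and 9.18%, but in 10.6% and 10.5% of missing and kept windows within the 2 weakest classes. GTGGGAA (RBPJ) was in 9.09%, 5.77% and 6.06%, and GGGGCGGG (KLF/SP) in 32.5%, 35.0% and 22.4%. Within the 2 weakest classes, GTGGGAA was in 11.5% (13 of 113) against 5.84%, and GGGGCGGG in 31.9% against 38.7%. CAGCTG (E box) was in 16.2%, 13.0% and 15.7%, and AGATAA, the GATA factor motif, in 5.84%, 4.51% and 9.68%. In the same weak classes, CAGCTG was in 19.5% of missing against 13.7% of kept windows, and AGATAA in 5.31% against 4.79%. TGACGTCA (CREB) was in 1.30%, 3.89% and 2.26%, and TGANTCA (AP-1) in 2.60%, 3.86% and 7.04%. CAAAGTCCA (HNF4) and TCAAGGTCA (ESRR) were each in 0 of 154 windows and in 0.230% and 0.260% at kept regions. The others, each in 1.30% to 3.90% of windows at missing regions and 1.13% to 3.67% at kept ones, were TGTTTAC (forkhead), ACAGGAAGT (ETS), CCACACCC (KLF CACCC), AACCNGTT (GRHL), GGAATGT (TEAD) and ACAAAGG (SOX). None of these motifs was tested, and windows of 1 gene can overlap.

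The count of missing regions rose when a library was left out, which loosens the rule, and the size of the rise differed. In place of 1134, it was 1939 and 2000 without wild-type replicate 1 and 2. Without NICD replicate 1 and 2 it was 1187 and 1685, and without 2-allele replicate 1 and 2 it was 2045 and 1561. The share of the regions near a gene start ran from 23.5% to 38.0% when each of the 6 libraries used by the rule was left out in turn.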

How the data were processed

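Bowtie2 alignment to GRCm38 (mm10) and MACS2 peak calling are named by the submitters' processing notes. Of the 11 lists, 9 carry MACS 2.0.10.20131216 settings, which per the file headers were no control, a q-value threshold of 0.05, a local background of 10 kb and a genome size of 2.7 Gb. These deposited lists give a pileup signal, −log10 p-value, −log10 q-value and fold enrichment per peak, all the authors' values, with fold used to rank peaks within a list. The 2 deposited 2-allele lists give positions only, and their calling is not stated in the sources used here. Only an H3K27ac antibody is named in the protocol, also for the H3K4me3 libraries.

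Peaks were merged and compared with Python 3.11.15, pandas 2.3.3 and SciPy 1.17.1, and the steps were tested on simulated data. Gene starts came from the RefSeq promoter table (17273 genes), a lone end with H3K4me3 within 1 kb (2578) or both ends (1776). Motifs were to be read in windows at peak summits, but no genome was at hand, so promoter windows overlapping the regions were used. The regions, gene lists (447 of 448 names matched) and tests were chosen with earlier results of these data known. Named were the 10 strongest regions near starts, distal, with both 1-allele peaks and with all H3K4me3 peaks, the 10 genes with most missing regions, and list genes with one at a start. Ties between genes were broken by the missing share of their regions and then by symbol. Other list genes, distal regions not in all 9 lists and the microRNAs were chosen after their values were seen. A gene and a motif are not reported here.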

Additional observations from a re-analysis of the deposited data

How the results depend on the processing

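The values were recomputed under each alternative, of which leaving out regions called in all 9 scored lists, and every list-gene count, were added after the data were seen. With at least 200 bp of overlap there were 578 missing regions, H3K4me3 was called in 39.3%, 71.3% and 14.9% of them (wild type, NICD, Arid1a-floxed) and 13 list genes had one. With wild-type and NICD peaks of −log10 q at least 5, the values were 353 regions, 45.6%, 74.2% and 24.9%, and 8 list genes. With only the strongest 14364 peaks of each of these lists they were 285 regions, 52.6%, 85.6% and 24.2%, and 3 list genes. The share near a gene start was 20.6% when a 2-allele peak within 1 kb counted as called and 29.5% with starts within 2.5 kb. Counting H3K4me3 peaks within 1 kb gave 39.1%, 75.8% and 13.8%, and without regions called in all 9 lists the wild-type and Arid1a-floxed shares were 28.1% and 4.15%. Leaving out each library in turn gave 1187 to 2045 regions, 23.5% to 38.0% near a start, a 1-allele difference of -49.4 to -30.5 points, H3K4me3 shares of 24.9% to 41.8%, 60.8% to 74.5% and 6.95% to 11.6%, and 32 to 60 list genes. Fewer libraries in the rule let more regions pass it, and stricter peaks let fewer. The cause of the other shifts was not tested. Every alternative kept the 1-allele difference below 0. Of the 82 named regions, 54 stayed in the set with 200 bp of overlap, 70 with the 1 kb rule, 45 at the stricter q, 41 with the strongest peaks and 80 to 82 when a library was left out. That last range says little, because leaving out a library loosens the rule and so can hardly remove a region. No paired analysis was possible because no result comes from a test between groups and replicate numbers only name the libraries; the sign-flip test set 2 kinds of region against each other inside each 1-allele library. The depth of the 2-allele libraries is unknown, so weak peaks there cannot be told from absent ones.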
